A study of Mus musculus with 8 samples.

Results

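The sarcomeric myosin genes described here are *Myh6*, *Myh7*, *Myh7b*, *Myl2*, *Myl3*, *Myl4*, *Myl7* and *Mybpc3*. Their H3K27Ac peaks are those whose centre lies nearest to a curated RefSeq transcription start of 1 of these 8 genes, which gives 17 of the 45987 deposited peaks. The libraries come from ventricles of mice at postnatal day 7. Control mice carried the floxed *Arid1a* allele on both chromosomes (labelled Arid1a f/f) and no Cre by their label. *Arid1a cKO* mice carried the same floxed alleles and the αMHC-Cre transgene, which is active in cardiomyocytes, so *Arid1a* is intact in the other cells of the ventricle. The lines were kept on a C57B/6 J background. Each genotype has 2 H3K27Ac immunoprecipitations (anti-H3K27Ac, Active Motif) and 2 input libraries, 8 libraries in all. The deposited table gives 1 mean per group and 0 columns of per-sample values. Each level below is therefore the authors' mean of 2 libraries in normalized reads, the depth of the libraries is unknown, and the group means alone give no spread between replicates, interval or test. The p-values that the authors list beside them were not used here. Differences are the log2 level in *Arid1a cKO* minus that in controls, and a peak is called lower or higher where the groups differ at least 2-fold.

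Sarcomeric myosin is built from heavy chains, which hold the motor, and from regulatory and essential light chains, which bind the neck of the heavy chain. It forms the thick filament that pulls on actin. *Myh6* encodes the α-heavy chain that predominates in the adult mouse heart, and *Myh7* encodes the slower β-heavy chain that predominates in the fetal ventricle. Ventricular cardiomyocytes use the regulatory light chain of *Myl2* and the essential light chain of *Myl3*, while *Myl7* and *Myl4* encode the forms of the atria and of the early embryonic heart. *Mybpc3* encodes cardiac myosin-binding protein C, which lies along the thick filament and restrains the myosin heads. H3K27Ac marks active promoters and enhancers.

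H3K27Ac at the myosin genes differed between the groups in both directions, and the peaks called were narrower and weaker than the broad domains over gene starts. This is not particular to the myosin genes. Over all peaks with at least 512 normalized reads, only 0.64% were called lower and 0.0% higher. Of the 17 peaks, 3 were called lower in *Arid1a cKO* (17.6%, against 10.6% of all 45980 peaks on assembled chromosomes) and 3 were called higher (17.6%, against 4.57% of all peaks). The lower peaks lay upstream of *Myh7b*, upstream of *Myl3* and inside *Mybpc3*, and the higher ones were a peak upstream of *Myl2* and both peaks of *Myl7*. The median difference was −0.15 over the 17 peaks, with 11 below 0 and 6 above 0. Over all peaks it was 0.01, with 22225 below 0 and 23277 above 0. With starts of protein-coding genes alone, the member median was −0.05. The summed reads of the 17 peaks differed by −0.088, close to the −0.084 of all peaks together. At a 1.5-fold limit, 4 peaks were lower and 4 were higher, against 17.3% and 12.0% of all peaks. By the difference of summed reads, 5 of the 8 genes were lower in *Arid1a cKO*, led by *Myh7b* at −0.91, and 3 were higher, led by *Myl7* at 2.31. Over all 15761 genes with a peak, 50.3% had a summed difference below 0. With only 17 peaks, each called peak is 1 observation, and counts this small are given as a description.

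**Figure D1:**
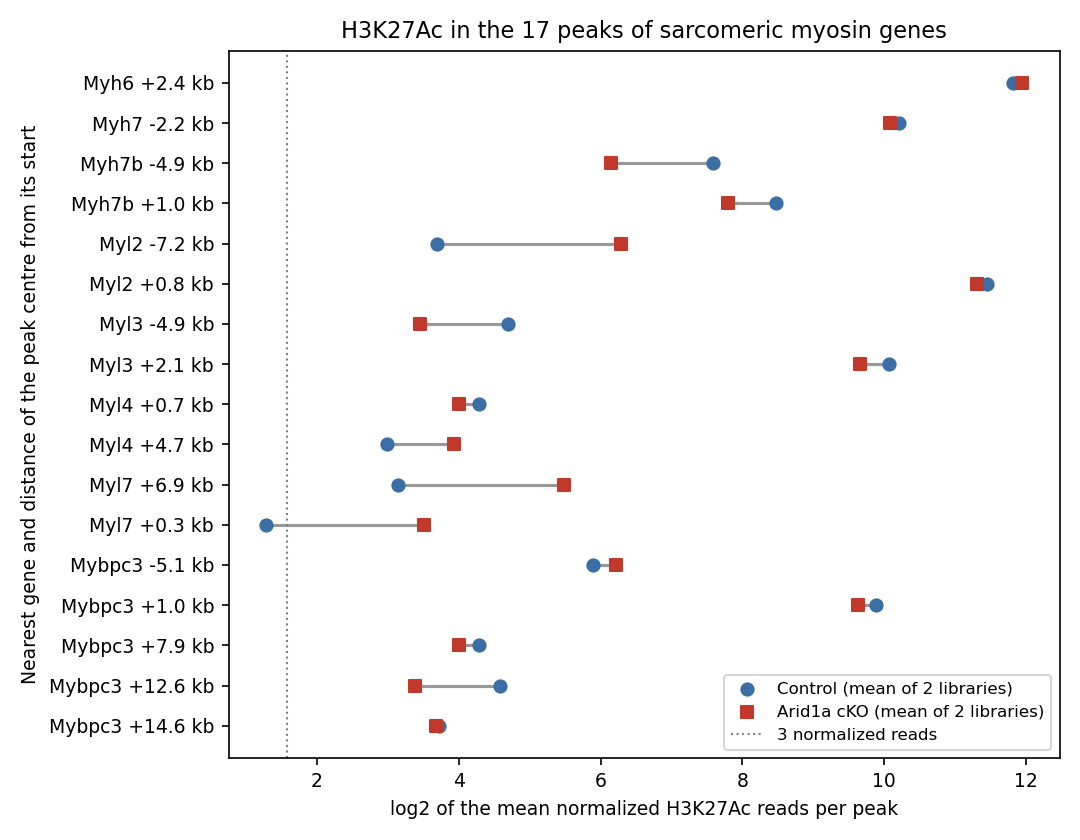
Group mean of every myosin gene peak on the log2 scale (horizontal axis, normalized reads per peak), with controls as blue circles and Arid1a cKO as red squares, a dotted line at the floor of 3 reads, and rows named by the nearest gene and the distance of the peak centre from its start. The longest lines are those of the Myl2 peak at −7.2 kb and of both Myl7 peaks, where the mutant lies to the right, while the top peaks of Myh6, Myh7 and Myl2 nearly coincide.

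Differences were smaller at stronger peaks. Of the member peaks, 5 had at least 512 normalized reads on average, at *Myh6*, *Myh7*, *Myl2*, *Myl3* and *Mybpc3*, and their differences ran from −0.42 to 0.13. Among these, 0 of 5 were called, and among all 2030 peaks of that strength 0.64% were called lower and 0.0% higher. The other 12 member peaks held all 6 calls, 3 in each direction, against 11.1% and 4.78% of the 43950 weaker peaks. Over all peaks, the central 90% of differences ran from −0.52 to 0.21 in the strong and from −1.74 to 0.98 in the weaker group. The limit of 512 reads was chosen after the values were seen.

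**Figure D2:**
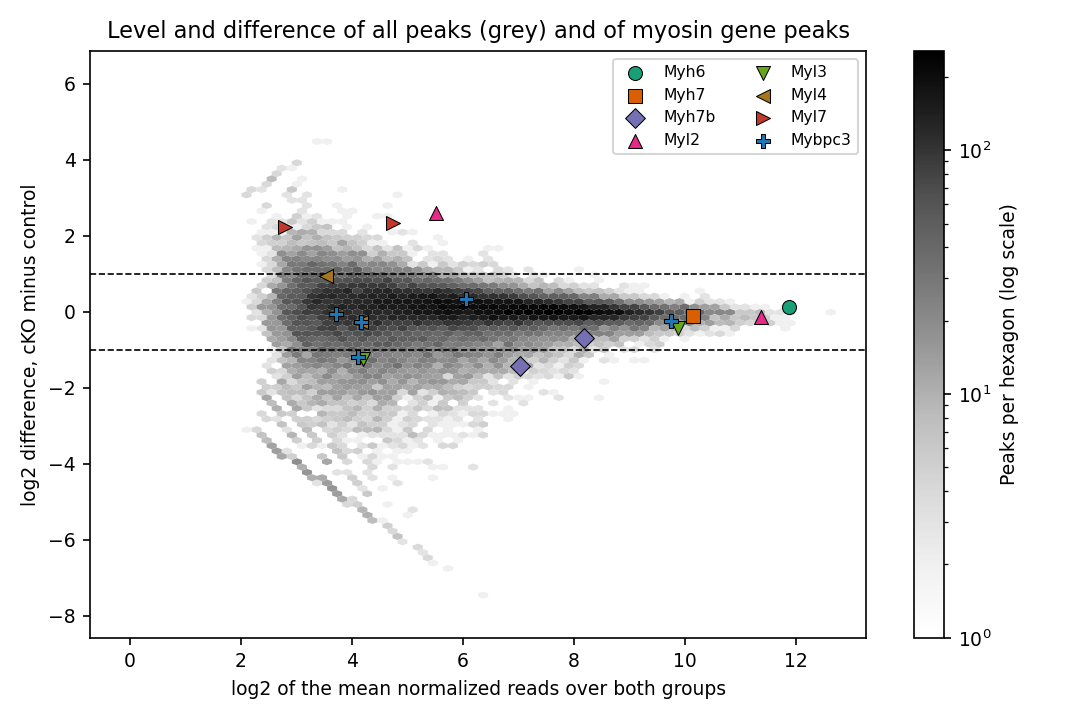
Log2 difference (vertical axis, Arid1a cKO minus control) against the log2 mean of both groups (horizontal axis, normalized reads) for all peaks, as grey hexagons shaded by the number of peaks on a log scale, with the 17 myosin gene peaks as coloured symbols and dashed lines at 2-fold in each direction. The Myl2 and Myl7 symbols above the upper line lie at the edge of the grey cloud, and the strongest symbols lie close to 0.

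The heavy chain genes *Myh6* and *Myh7* lie tail to head on the minus strand of chromosome 14, with 4.08 kb between their bodies, and each had a single peak by the nearest start. The *Myh6* peak (mm10 chr14:54951726-54976694) is 25.0 kb wide and covers the *Myh6* start, the space between the genes and the 3′ part of *Myh7*. It held 3591 normalized reads in the controls and 3929 in *Arid1a cKO*, a difference of 0.13, and ranked 13 among 45980 peaks by reads and 52 by width. The *Myh7* peak (chr14:54985993-55007660) is 21.7 kb wide and covers the *Myh7* start. It held 1176 normalized reads in the controls and 1082 in *Arid1a cKO*, a difference of −0.12. Both differences lay inside the central 90% of strong peaks. The αMHC promoter that drives Cre is taken from the 5′ flank of *Myh6*, which this *Myh6* peak covers, so signal of the gene and of the transgene copies cannot be told apart there.

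Per kb of peak, *Myh6* had 2.65 times the H3K27Ac of *Myh7* in controls and 3.15 times in *Arid1a cKO*. The log2 ratio was thus 0.25 higher in the mutant. It was 0.079 higher, at ratios of 1.09 and 1.15, with all peaks over the gene bodies and the 5 kb upstream. There the broad *Myh6* peak counts for both genes. Because that peak may hold reads of the transgene promoter in the mutant, neither change can be read as a shift between the heavy chains.

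Noncoding starts inside these genes own 4 further peaks. *Mir208a* lies in an intron of *Myh6* and *Mir208b* in *Myh7*, and *Mir499* is hosted by *Myh7b*, so each heavy chain gene carries a miRNA of 1 related group. The mature forms are shown because their starts decide which peaks count as myosin peaks. RefSeq (GRCm38.p6) gives them as follows, with bases 2 to 8, the seed, in capitals.
miR-208a-3p (chr14:54949072-54949093, minus strand): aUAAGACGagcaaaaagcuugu
miR-208b-3p (chr14:54975710-54975731, minus strand): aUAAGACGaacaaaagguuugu
miR-499-5p (chr2:155622893-155622913, plus strand): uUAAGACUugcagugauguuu
The miR-208 forms share their seed and differ at 3 positions, all outside it, and miR-499-5p has a related but not identical seed. miR-208b-3p lies inside the broad *Myh6* peak, and miR-499-5p lies in no peak. miR-208a-3p lies in a peak of its own (chr14:54947625-54950821) with 47.5 normalized reads in the controls and 55.3 in *Arid1a cKO*. The other peak nearest to *Mir208a*, in the 3′ part of *Myh6* (chr14:54943464-54946539), held 23.1 and 43.7 reads, a difference of 0.92. The peaks nearest to *Mir208b*, over coding exons of *Myh7*, had differences of 0.17 and 0.05. All 4 of these peaks lay above 0, as did 23277 of all 45980 peaks, and none was called. The long noncoding RNA *Mhrt* starts inside the broad *Myh6* peak and owned no peak.

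*Myh7b*, a heavy chain gene related to *Myh7*, had the lowest summed level among the heavy chain genes and the largest negative difference among the members. Its peaks together held 548 normalized reads in the controls and 292 in *Arid1a cKO*. The upstream peak (chr2:155605014-155607688) is centred 4.89 kb before the start, between genes. It held 191 normalized reads in the controls and 71.0 in *Arid1a cKO*, 2.69-fold lower, at a difference of −1.43. The peak over the start (chr2:155610215-155614229) is centred in an intron 0.979 kb downstream and held 357 and 221 reads, a difference of −0.69. By reads, these peaks stood at the percentiles 75.8 and 89.5 of all peaks. The rest of the gene body, with miR-499, carried no peak. The summed difference of −0.91 became −0.69 for the stronger peak alone and −1.06 for the median of both.

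The *Myh7b* sequences are shown because this gene had the largest negative summed difference among the members, in the peak called lower and in the promoter. The promoter is the RefSeq entry of 250 bases up to the start, and the upstream sequence is the central 300 bases of the lower peak. Capitals mark matches on either strand to 4 spelled motifs, AAGGTCA of the estrogen-related receptors, CAGGTG of the ZEB E-box, CATTCC of TEAD and AGATAA of GATA factors, and to the MEF2 and CArG box cores searched by name.
Myh7b upstream peak (chr2:155606201-155606500, plus strand): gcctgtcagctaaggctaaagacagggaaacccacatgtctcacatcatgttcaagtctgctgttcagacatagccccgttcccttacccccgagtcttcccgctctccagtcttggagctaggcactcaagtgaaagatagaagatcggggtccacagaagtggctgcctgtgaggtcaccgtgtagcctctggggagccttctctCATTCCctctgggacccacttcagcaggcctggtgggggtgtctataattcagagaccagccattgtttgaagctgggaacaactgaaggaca
Myh7b promoter (chr2:155610993-155611242, plus strand): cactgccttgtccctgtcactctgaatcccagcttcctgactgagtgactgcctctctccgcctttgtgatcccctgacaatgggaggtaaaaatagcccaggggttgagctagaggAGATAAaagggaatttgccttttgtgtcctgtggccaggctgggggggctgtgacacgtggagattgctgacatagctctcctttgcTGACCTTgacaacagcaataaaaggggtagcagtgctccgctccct
The upstream window held 1 TEAD match, which 16.7% of all central 300-base windows also hold. The promoter held 1 estrogen-related receptor match, found in 4.08% of the 32851 RefSeq promoters of this length, and 1 GATA match, found in 9.99%. Over its whole width the start peak held 4 estrogen-related receptor matches and the upstream peak 0. A match is a description of letters and not of a binding site, and none of these motifs overlapped another in the printed windows.

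The ventricular light chain genes *Myl2* and *Myl3* kept broad, strong domains over their starts. The *Myl2* domain (chr5:122091124-122112486) spans 21.4 kb, nearly the whole gene, and held 2798 normalized reads in the controls and 2521 in *Arid1a cKO*, a difference of −0.15. It ranked 50 among all peaks by reads. The *Myl3* domain (chr9:110762087-110769484) spans 7.40 kb and held 1075 and 803 reads, a difference of −0.42, the lowest among the 5 strong member peaks. Their smaller upstream peaks parted in opposite directions. The *Myl3* peak 4.91 kb before the start (chr9:110758127-110759408) held 25.8 normalized reads in the controls and 10.9 in *Arid1a cKO*, 2.36-fold lower. The *Myl2* peak 7.17 kb before the first start (chr5:122084373-122086736), between genes, held 13.0 reads in controls and 78.3 in *Arid1a cKO*. That is 6.02-fold higher, a difference of 2.59, above 99.7% of all peaks. Because the domain outweighs it, the summed difference of *Myl2* was −0.11, while the median of its peaks was 1.22.

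The centre of the higher *Myl2* peak is shown for comparison with the *Myl7* sequences that follow.
Myl2 upstream peak (chr5:122085404-122085703, plus strand): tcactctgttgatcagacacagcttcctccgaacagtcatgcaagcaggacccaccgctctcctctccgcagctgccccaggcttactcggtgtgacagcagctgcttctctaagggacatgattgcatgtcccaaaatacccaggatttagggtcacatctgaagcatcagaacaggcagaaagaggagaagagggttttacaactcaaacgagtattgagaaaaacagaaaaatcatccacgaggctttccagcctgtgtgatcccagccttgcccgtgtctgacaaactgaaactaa
It held 0 matches to the 6 motifs in these 300 bases, and the whole peak of 2364 bases held 1 estrogen-related receptor match, 1 ZEB E-box and 0 TEAD matches.

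The atrial regulatory light chain gene *Myl7* had little H3K27Ac in control ventricles and more in *Arid1a cKO* at both of its peaks. The peak over its start (chr11:5898135-5898849) held 2.44 normalized reads in controls, at or under the floor of 3 reads, and 11.4 in *Arid1a cKO*, at least 3.80-fold higher. The peak 6.91 kb past the start, beyond the end of the gene (chr11:5890870-5892865), held 8.88 normalized reads in the controls and 44.6 in *Arid1a cKO*, 5.03-fold higher, at a difference of 2.33. Together they held 11.3 and 56.0 reads, a summed difference of 2.31, which became 2.04 with 3 reads added to each sum. The level stayed low in the mutant, where both peaks together had 20.7 reads per kb against 110 per kb at *Myl2*. The start peak was weaker than all but 2.02% of peaks, so its level rests on very few reads.

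Among the 3089 other genes with 2 peaks, those whose summed log2 levels in the 2 groups lay nearest to *Myl7* were *4732490B19Rik*, *Mmrn1* and *Gm33948*, at distances of 0.607, 0.626 and 0.678 on the log2 scale. This likeness rests on 2 group means.

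Myl7 downstream peak (chr11:5891717-5892016, plus strand): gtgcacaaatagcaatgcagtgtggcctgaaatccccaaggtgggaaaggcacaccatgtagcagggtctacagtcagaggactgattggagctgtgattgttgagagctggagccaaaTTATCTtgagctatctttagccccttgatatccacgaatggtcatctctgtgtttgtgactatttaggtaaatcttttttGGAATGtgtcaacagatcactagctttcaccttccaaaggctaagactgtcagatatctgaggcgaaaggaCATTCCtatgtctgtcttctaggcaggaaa
Myl7 promoter (chr11:5898783-5899032, minus strand): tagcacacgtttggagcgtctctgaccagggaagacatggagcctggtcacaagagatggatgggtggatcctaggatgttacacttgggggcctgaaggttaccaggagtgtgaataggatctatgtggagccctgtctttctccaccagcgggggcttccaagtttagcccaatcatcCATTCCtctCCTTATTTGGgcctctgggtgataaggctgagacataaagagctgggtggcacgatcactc
The downstream window held 2 TEAD matches and 1 GATA match, with the same capitals as above, and the whole peak held 3 of each. Of all central windows, 16.7% hold a TEAD match and 13.4% a GATA match. The promoter held 1 TEAD match, found in 12.6% of RefSeq promoters of this length. Beside it lay 1 CArG box, the core bound by serum response factor, found in 1.47%. This pair was not particular to *Myl7*, since the *Myl3* promoter held 2 TEAD matches and 1 CArG box. The *Myh6* promoter and an *Myh7* promoter each held 1 TEAD match. The start peak reaches only into the last part of this promoter window and holds the CArG box, while the TEAD match straddles its edge and was not counted in it. Across all 17 member peaks, 14 held at least 1 TEAD match over their whole width, and wide peaks hold any short motif more often.

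The atrial essential light chain gene *Myl4* had 2 weak peaks by the nearest start, and its direction depends on the peaks assigned to it. They lie in introns at chr11:104577423-104578464, with 19.6 normalized reads in the controls and 16.1 in *Arid1a cKO*, and at chr11:104581472-104582517, with 7.95 and 15.2 reads. The summed difference was 0.19, but it was −0.14 with predicted transcripts included and −0.28 for the peak with the most control reads alone. The peak over the first *Myl4* start (chr11:104548863-104551513) also covers the start of *Cdc27*, a cell cycle gene, which lies nearer to its centre. It held 440 normalized reads in the controls and 431 in *Arid1a cKO*, a difference of −0.03. The noncoding *Gm11665* owned 2 more peaks inside *Myl4*, with 202 and 214 reads at the stronger (a difference of 0.08) and 14.2 and 30.3 reads at the weaker (1.09, 2.13-fold higher).

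**Figure D3:**
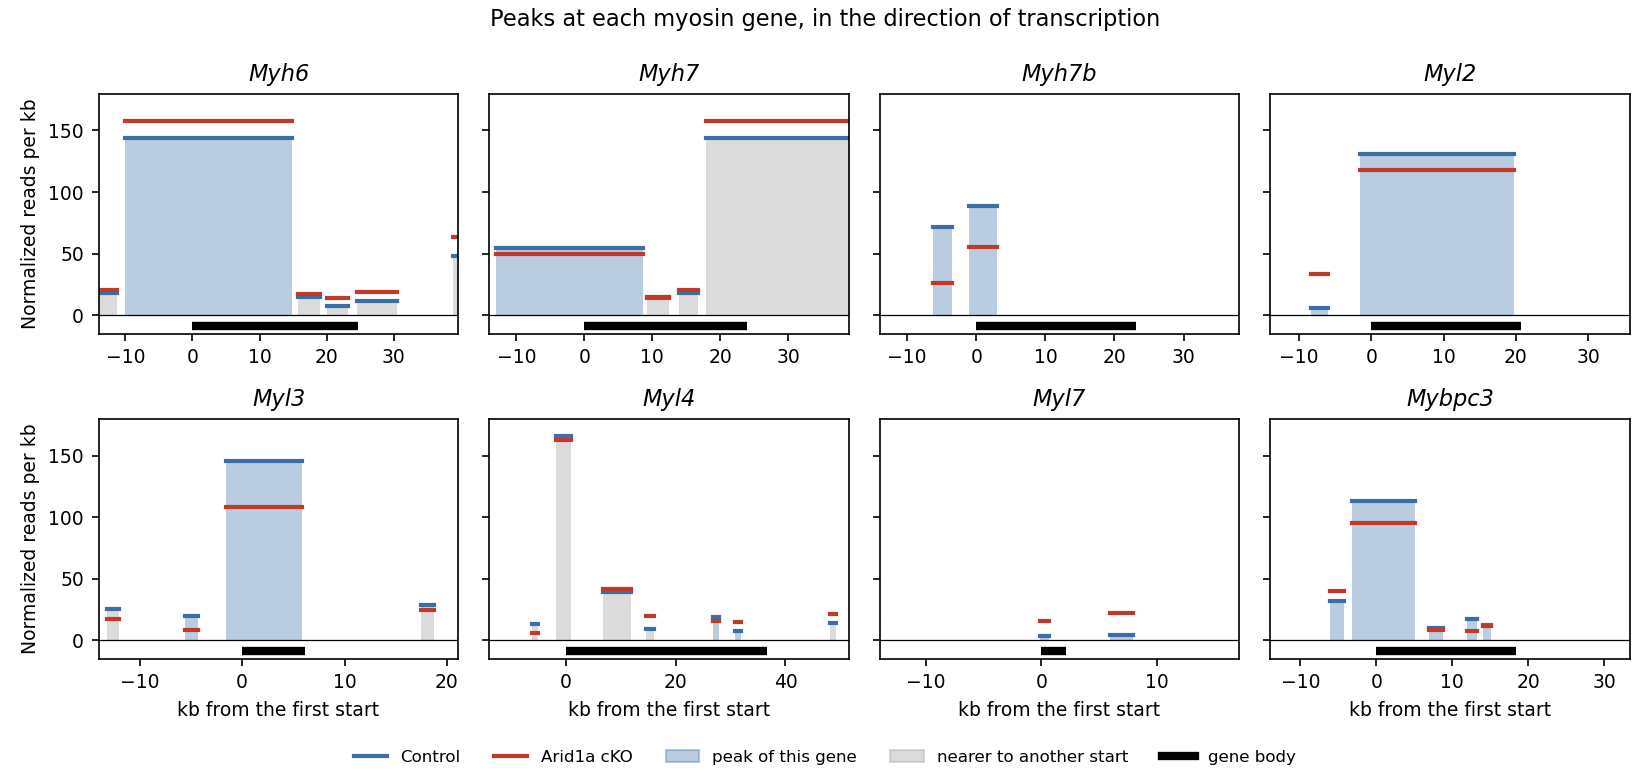
Peaks at each myosin gene from 14 kb before its first start to 15 kb past its end, drawn in the direction of transcription, with kb from the first start on the horizontal axis and normalized reads per kb of peak on the vertical axis (blue and red lines, control and Arid1a cKO means; blue fill, peaks of the named gene; grey fill, peaks nearer to another start; black bar, gene body). Lines of both groups lie close over the starts of Myh6, Myh7 and Myl2, the red line is below the blue one at both Myh7b peaks, and it is above at both Myl7 peaks.

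The ratio of ventricular to atrial light chain genes was smaller in *Arid1a cKO* by both comparisons. Per kb of peak, *Myl2* had 28.4 times the H3K27Ac of *Myl7* in controls and 5.30 times in *Arid1a cKO*, a log2 change of −2.42. The summed difference was 2.31 at *Myl7* and −0.11 at *Myl2*, so the change lay almost wholly at *Myl7*. Its control level rests on 11.3 summed reads, with the start peak under the floor of 3 reads. The control ratio is therefore poorly determined, and with 3 reads added the change was −2.16. *Myl3* had 9.63 times the H3K27Ac of *Myl4* in controls and 6.25 times in *Arid1a cKO*, a change of −0.62, with *Myl3* lower. This ratio counts only the weak intron peaks of *Myl4* and leaves out the stronger peak over its first start, which is nearer to *Cdc27*. With all 5 peaks over the *Myl4* body and the 5 kb upstream, *Myl4* had 60.1 reads per kb in controls and 62.1 in *Arid1a cKO*, and the ratio was 2.11 in controls and 1.51 in *Arid1a cKO*, a change of −0.48. The change of *Myl3* over *Myl4* shrank to −0.14 when only the peak with the most control reads of each gene was used, and the change of *Myl2* over *Myl7* was −1.06 by the median of the peaks.

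**Figure D4:**
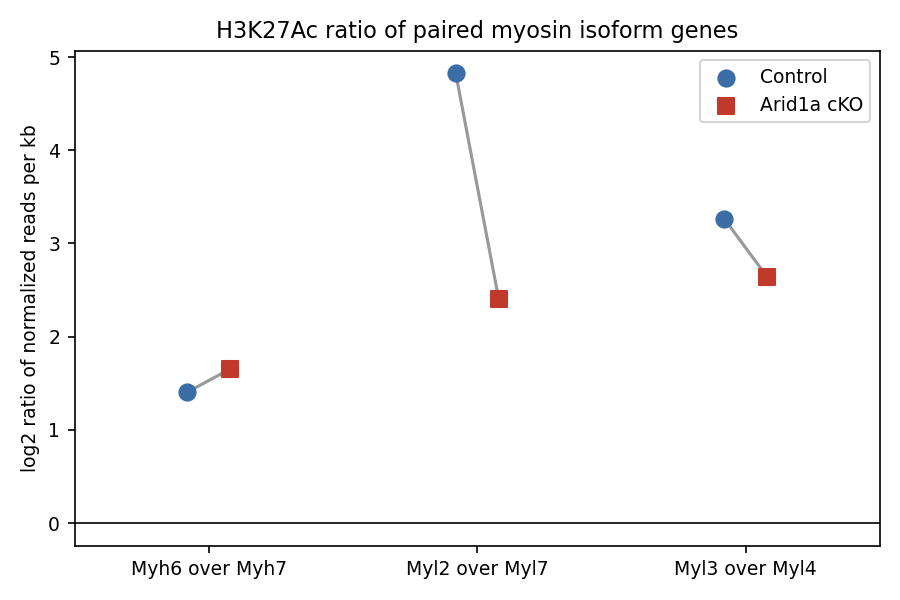
Log2 ratio of normalized reads per kb between paired myosin genes (vertical axis), the adult or ventricular gene over the fetal or atrial gene, in controls (blue circles) and Arid1a cKO (red squares). The change in the mutant is −2.42 for Myl2 over Myl7, −0.62 for Myl3 over Myl4 and 0.25 for Myh6 over Myh7. In the last pair, the Myh6 peak may hold reads of the transgene promoter in the mutant.

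*Mybpc3* had 5 peaks, the most among the members. The domain over its start (chr2:91114945-91123278) is 8.33 kb wide and held 942 normalized reads in the controls and 792 in *Arid1a cKO*, a difference of −0.25. The 3 peaks further inside the gene were weak. The one called lower (chr2:91130084-91131454, centred in an intron 12.6 kb past the start) held 23.9 reads in controls and 10.4 in *Arid1a cKO*, 2.30-fold lower. Its neighbours over coding exons at 7.86 and 14.6 kb held 19.6 and 13.3 reads in controls and 16.1 and 12.8 in *Arid1a cKO*. The peak 5.15 kb before the start lies in an intron of *Spi1*, a transcription factor gene of myeloid cells, and was the only *Mybpc3* peak with more reads in the mutant (59.3 and 74.5, a difference of 0.33). The summed difference of *Mybpc3* was −0.22.

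The 5 strong peaks were wider than 96.6% of all peaks or more and had more reads than 98.4% or more. They were picked by their reads, so their high read ranks follow from that choice. Their widths ran from 7398 to 24969 bases, against a median of 7649.5 bases over all 2030 strong peaks, so width did not set them all apart. All 5 covered a start of their own gene. In all, 7 of the 17 peaks covered such a start, including those of *Myh7b* and *Myl7*. Outside the strong domains, member peaks ranged from 2.44 to 357 reads in controls.

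Genes that fold, phosphorylate or anchor myosin were counted in the same way. Of 23 such genes, 22 had 129 peaks, with 13 called lower (10.1%, against 10.6% of all peaks) and 9 higher (6.98%, against 4.57%), a median difference of −0.13 against 0.01 over all peaks, and summed reads of 23240 in controls and 19880 in *Arid1a cKO*. The largest difference was at *Mylk4* (−2.74, 103 kb from its start), of the myosin light chain kinase family. It was followed by *Mylk3* (−1.98, 105 and 26.5 reads, 4.98 kb before its start), the cardiac light chain kinase that acts on *Myl2* protein. Next came the sarcomeric spring gene *Ttn* (−1.96) and the M-band gene *Myom3* (−1.81). These are single peaks, all lower, while the largest difference among the 9 higher peaks was 1.49. Over all peaks of a gene, the summed differences were −0.05 at *Mylk4*, −0.345 at *Mylk3*, −0.24 at *Ttn* and −0.95 at *Myom3*. Of 13 skeletal muscle myosin and myosin-binding genes, 8 had no peak, among them *Myh1*, *Myh2*, *Myh3*, *Myh4* and *Myh8*. The other 5 had 8 peaks, with 2 called lower (25.0%) and 1 higher (12.5%) against the same shares of all peaks and a median difference of 0.54. The calls were at *Mybpc1* (−1.50), *Myl1* (−1.16) and *Mybpc2* (1.05). Nonmuscle and smooth muscle myosin genes had 27 peaks, with 3 called lower (11.1%), all at *Myh14*, and 1 called higher (3.7%), at *Myh10* (1.58), and a median difference of 0.07. The *Myh14* peak with the largest difference held 29.7 reads in controls and was at the floor in *Arid1a cKO*, at least 9.88-fold lower.

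Marker genes of the cells in the ventricle also differed between the groups. Of 8 cardiomyocyte genes, 7 had 41 peaks (*Actc1* had none), with 22510 summed reads in controls and 19790 in *Arid1a cKO*, and the median difference of −0.14 is near that of the myosin peaks. Fibroblast genes (7 of 7) had 45 of 49 peaks above 0, with summed reads of 3641 and 4960 and a median of 0.46. Of all 45980 peaks, 23277 lay above 0, and all peaks together held 5751000 reads in controls and 5426000 in *Arid1a cKO*. Called higher were 9 fibroblast peaks (18.4%, against 4.57% of all peaks) and 2 cardiomyocyte peaks (4.88%). Called lower were 0 fibroblast peaks and 2 cardiomyocyte peaks (4.88%, against 10.6% of all peaks). Summed reads of controls and *Arid1a cKO* were 2012 and 2405 for smooth muscle (6 of 6), 11920 and 12340 for endothelial (6 of 6), 280 and 357 for macrophage (4 of 6) and 625 and 716 for skeletal muscle genes (3 of 7, without *Myod1* and *Myf5*). Of 8 atrial genes, *Sln* and *Bmp10* had no peak and 6 had 19 peaks, with 1406 and 1436 summed reads. They parted in direction, since *Nppa*, a natriuretic peptide gene of atrial and fetal cardiomyocytes, held 49.5 and 234 reads (a difference of 2.24), while the peaks of *Kcnj3*, an atrial potassium channel gene, held 153 and 11.8 reads in sum. These are the extremes. *Nr2f1* and *Dkk3*, the other atrial genes with a called peak, had summed differences of 0.17 and −0.31. Of the 19 atrial peaks, 4 were called lower (21.1%, against 10.6% of all peaks) and 2 higher (10.5%, against 4.57%). Their median difference was 0.06. The part of cell makeup in the myosin differences was not tested, and in whole ventricles fewer cells of a type and less H3K27Ac per cell cannot be told apart.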

How the data were processed

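H3K27Ac ChIP-Seq and input libraries of P7 ventricles were grouped by genotype and antibody from their titles. Per the labels and the methods, the authors aligned the libraries against mm10 (BWA 0.7.17-r1188). Peak calling used HOMER with all inputs merged as background, and a peak had to occur in 2 samples or more. Normalization and averaging used DiffBind 2.12.0 and DESeq2 1.24.0. The authors deposited log2 values, each the log2 of a peak's normalized read count averaged over all libraries or over a group. Library scaling and input subtraction were not given in the sources used here. The columns with the authors' fold changes, p-values and FDRs were not used. The number of per-sample columns is 0, so no test was made.

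Peaks were assigned to the nearest of 45756 curated RefSeq starts of GRCm38.p6, the assembly of mm10. No peak ended past its chromosome, and 7 peaks of unplaced contigs have no gene here. Gene levels are sums of linear means. The floor was 3 normalized reads per group mean, and folds against it are bounds. The genes named are the 8 members, all their peaks, at most 4 called genes of each other list, genes of a list without a peak, owners of starts within member loci, and the 3 genes nearest in level to the member with the largest summed difference. The members and lists were chosen with earlier results of these data known. A neighbouring peak is not reported here. Motifs were matched as letters on both strands. Alternatives covered the assignment, the fold limit, centring, low values, the pseudocount and the summary of a gene. The assignment and calls were tested on simulated data. The simulated reads had no variation between replicates beyond that of counting. The planted changes were larger than the fold limit and lay in peaks with more reads than the weakest peaks called here. The simulation therefore does not bear on the weak calls. Python 3.11.15, numpy 2.4.6, pandas 2.3.3 and matplotlib 3.10.9 were used.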

Additional observations from a re-analysis of the deposited data

How the results depend on the processing

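With 17 peaks and no values per library, a single weak peak decides most values. The depth of the libraries is unknown, and replicate error was not weighed because the authors' p-values were not used. No paired analysis was possible because the deposited table holds group means and no result comes from a test. A value was taken to move where it shifted by over 0.1 on the log2 scale, and a count where it moved by over 1.5 times. At a 3-fold limit 0 peaks were lower instead of 3, and 3 were higher. With starts of protein-coding genes alone, 21 peaks were assigned, 4 were higher and the median difference was −0.05, at the edge of these limits. Counting all peaks over the gene bodies and the 5 kb upstream took the median difference to −0.03, the change of *Myh6* over *Myh7* to 0.079 and that of *Myl3* over *Myl4* to −0.48. The change of *Myl3* over *Myl4* was −0.29 with predicted transcripts, −1.16 by the median of the peaks and −0.14 for the peak with the most control reads alone. That of *Myl2* over *Myl7* was −2.16 with 3 reads added and −1.06 by the median of the peaks. For the summed differences of the 8 genes, 70 of 80 values under the alternatives moved by up to 0.1 and 10 by more, and 76 kept the sign of the reported value. The exceptions were at *Myl4*, *Myl2* and *Myh7*, the last at 0.073 when all peaks over the gene body and upstream were counted. The 80 values are not 80 separate checks, because several alternatives left every peak as it was. *Myh6* and *Myh7* have a single peak each, so the median and the strongest peak give the reported value again. The counts of 70 and 76 therefore overstate how stable the values are. Limiting peaks to within 50 kb of a start, measuring from the peak edge and leaving out peaks under 10 reads in both groups kept the same 17 peaks. These alternatives therefore could not move any result and are no check of them. Subtracting the median of all peaks, 0.01, shifted each difference only by that amount.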

Other observations

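A weak peak in an intron of *Cdc27* beside *Myl4* (chr11:104544493-104545500) belongs to *Cdc27* by the nearest start and was picked after its values were seen. It held 13.4 normalized reads in the controls and 5.70 in *Arid1a cKO*, a difference of −1.23. Past the end of *Myl7*, the peak over the *Pold2* start (chr11:5877550-5879001) held 50.2 and 59.7 reads, a difference of 0.25.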
